A study of Mus musculus with 6 samples.

Results

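Expression of 8 T-box genes (Tbx1, Tbx2, Tbx3, Tbx4, Tbx5, Tbx15, Tbx18 and Tbx20) and of Pitx1 was described in wild-type (WT) and Mcm8 knockout (KO) mouse embryonic fibroblasts (MEFs). The members were every row of the deposited tables whose gene name was one of these 9, of 55565 genes listed. They were chosen by measured values, because Tbx4 and Pitx1 were higher and Tbx1 lower in KO MEFs, so the differences between genotypes given for the members are a description and carry no test. The values that chose them are the counts and FPKM of the same 6 libraries.

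T-box genes encode transcription factors that bind DNA through a shared domain, the T-box, and Pitx1 encodes a homeodomain transcription factor. In the embryo Tbx5 marks the forelimb bud and Tbx4 and Pitx1 the hindlimb bud, and Pitx1 acts upstream of Tbx4 there. Tbx1 is known for the pharyngeal arches and the outflow tract of the heart, and Tbx20 for the heart. Tbx2 and Tbx3 are mainly repressors, and Tbx15 and Tbx18 act in mesenchyme of the skin, skeleton and trunk.

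Bulk RNA sequencing had been made from MEFs to compare transcripts with and without MCM8, a helicase of the minichromosome maintenance family that acts in DNA repair. The 3 WT (Mcm8+/+) and 3 KO (Mcm8-/-) libraries came from MEFs of embryonic day 13.5, from crosses of Mcm8+/- mice of mixed C57BL/6J and ICR background, in which exon 7 of Mcm8 had been deleted with CRISPR-Cas9. Both genotypes had been immortalised with the lentivirus SV40gp6, selected with puromycin and grown in DMEM with 10% serum. The limbs, heart, head, tail and liver had been removed, so the cells came from the trunk. The methods call the 3 libraries of each genotype biological repeats and do not say if they were separate embryos or separate cultures. The p-values thus speak for these libraries only, and those of edgeR took the spread of each gene from a trend over all genes.

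Library totals ranged from 12722979 to 19019695 counts in WT and from 15954793 to 21022755 in KO. Mcm8, the deleted gene (ENSMUSG00000027353, chromosome 2, 132658061 to 132686117), had 176, 233 and 238 counts in WT and 89, 74 and 66 in KO, a log2 fold change of -1.75 (SE 0.16, adjusted p = 4.45e-26 by edgeR's quasi-likelihood test). Its counts cover the whole gene, the exons outside the deletion included. All 10 fibroblast markers listed were detected, with Vim at a mean of 875 FPKM in WT and 766 in KO. The genotypes also differed in sex-linked transcripts: the summed level of 4 Y-linked genes was 24.3 to 25.9 CPM (counts scaled to the library total, with TMM factors) in WT and 108 to 126 in KO, and Xist was 940 to 1359 CPM in WT and 474 to 494 in KO. The part of this difference in the members' values was not tested.

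DNA letters at the starts of the members were read for sequences that these proteins are known to bind. The promoter table (RefSeq, GRCm38.p6, 250 bases before to 50 after each start) held 4 of the 9 members, Tbx1, Tbx4, Tbx18 and Tbx20, with 5 starts. The full T-box site AGGTGTGA was found on either strand in 1.28% of the 32851 promoters of the table, its shorter form AGGTGT, which the full site contains, in 13.7%, and TAATCC, to which Pitx proteins bind, in 7.06%. Among the 5 starts of the members, the sole match was AGGTGT at the upstream start of Tbx1, beginning 76 bases before that start. No AGGTGTGA and no TAATCC was found there. The stretch around that match (minus strand, chr16:18590730-18590759) and the 30 bases before the start of Tbx4 (plus strand, chr11:85896735-85896764) are shown, since these 2 members had the largest fitted differences between genotypes among the members with more than 3 counts in every library, and capitals mark AGGTGT.
Tbx1: ctcaggactaagAGGTGTaagctcaggacc
Tbx4: ccccccccgccctccaggcacgcatacagg
A match is only a match of letters and was not examined for binding.

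Levels are given in FPKM, which divides counts by gene length and library total and so allows genes to be compared. In WT MEFs Tbx15 was the most abundant member with a mean of 27.7 ± 0.478 FPKM (SD, n = 3), above 92.8% of the 26898 genes with any FPKM above 0. Tbx18 followed with 5.95 ± 0.368 FPKM, Tbx1 with 4.94 ± 0.555, Tbx3 with 4.09 ± 0.435, Tbx5 with 3.40 ± 0.232 and Pitx1 with 2.80 ± 0.480. Tbx4 was at 0.179 ± 0.0759 FPKM, and Tbx2 and Tbx20 were close to 0. Between neighbours in this order the libraries of Tbx1 and Tbx3, of Tbx5 and Pitx1, and of Tbx2 and Tbx20 overlapped.

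In KO MEFs the order was Tbx15 (26.5 ± 1.08 FPKM), Pitx1 (11.4 ± 1.11), Tbx18 (6.29 ± 0.331), Tbx3 (4.51 ± 0.0470), Tbx5 (3.56 ± 0.0678), Tbx4 (1.18 ± 0.112), Tbx1 (0.762 ± 0.0628), Tbx20 and Tbx2. Pitx1 thus stood in 6th place in WT and in 2nd place in KO, and Tbx1 in 3rd place in WT and in 7th in KO. In KO only Tbx20 and Tbx2 overlapped with a neighbour in the order. The FPKM of the 8 T-box genes summed to 46.3 ± 0.390 in WT and 42.9 ± 1.28 in KO, and Tbx15 made up 59.9% ± 0.833 of the sum in WT and 61.8% ± 0.834 in KO.

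**Figure D1:**
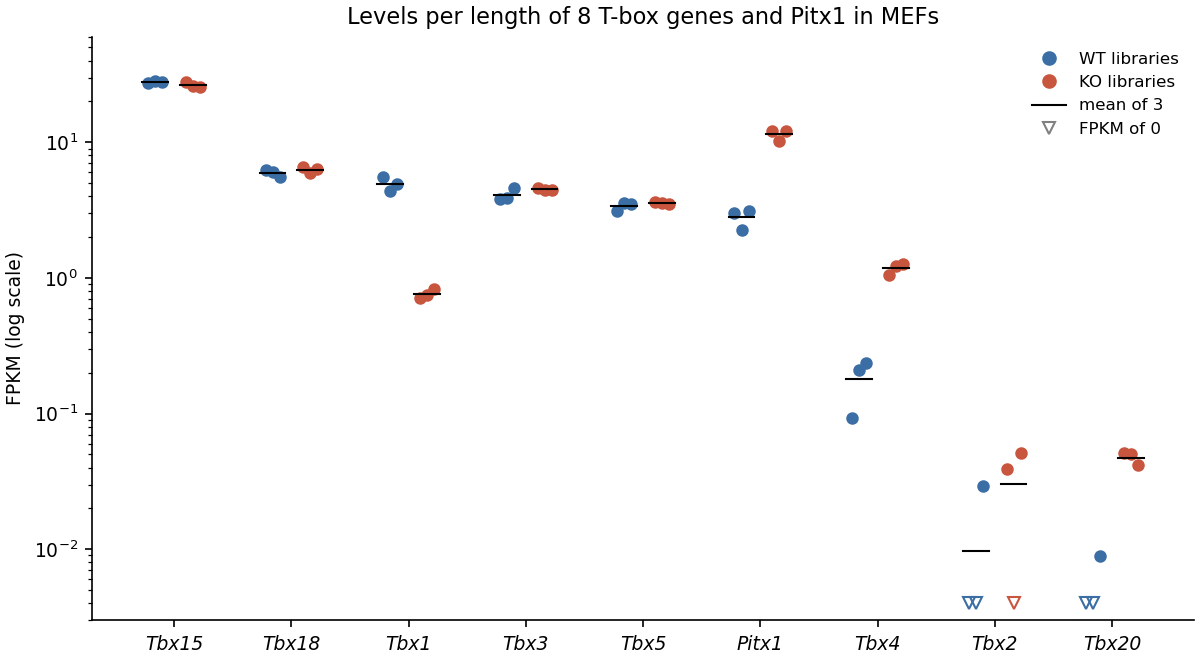
FPKM of the 9 genes on a log scale, ordered by their WT mean, with 1 point per library (WT blue, KO red), a bar at the mean of 3 libraries and open triangles for an FPKM of 0. Tbx15 was highest in both genotypes, and Pitx1, Tbx4 and Tbx1 were the genes with a mean above 0.1 FPKM in both genotypes whose WT and KO libraries stood apart.

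Calls rest on edgeR's quasi-likelihood test over all genes, with a limit of 1 on the log2 fold change in either direction and of 0.05 on the p adjusted by Benjamini-Hochberg. Of the 9 members, 3 were called higher in KO (Pitx1, Tbx4 and Tbx20) and 1 lower (Tbx1), where 1.75% of the 26898 genes tested were called higher and 0.665% lower, and nothing is read from this count because the rule used that contrast. DESeq2 called 3 of these 4 and not Tbx20. The CPM of the genotypes did not overlap for these 4 members, as for 21.6% of all genes tested. Of the 9 members, 7 passed edgeR's filter on low counts, and Tbx2 and Tbx20 did not.

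Pitx1 (ENSMUSG00000021506, chromosome 13, 55972864 to 55984005, minus strand) had 102, 84 and 157 counts in the WT libraries and 683, 450 and 517 in the KO libraries. Its CPM was 7.99, 5.99 and 8.43 in WT and 32.2, 27.0 and 32.3 in KO, so the lowest KO library stood above the highest WT library. In bulk samples, more cells that express a gene and more RNA per cell cannot be told apart, and the same holds for a lower level. The mean was 7.47 ± 1.30 CPM in WT and 30.5 ± 3.01 in KO (SD, n = 3), and the fitted difference was 4.06-fold (log2 fold change 2.02, SE 0.12). The WT libraries varied by 17.4% (coefficient of variation) where counting error alone gives 9.35%. A noncoding gene on the other strand, Gm47071, overlaps Pitx1 over 9943 bases and had 16, 68 and 48 counts in WT and 57, 53 and 52 in KO, and the strand setting of the counting is not given in the sources used here.

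Tbx4 (ENSMUSG00000000094, chromosome 11, 85777248 to 85806923, plus strand), which acts with Pitx1 in the hindlimb, had 4, 10 and 15 counts in WT and 76, 69 and 69 in KO. Its CPM was 0.314, 0.713 and 0.805 in WT and 3.59, 4.15 and 4.31 in KO, again without overlap. The mean was 0.610 ± 0.261 CPM in WT and 4.01 ± 0.379 in KO, and the fitted difference was 6.28-fold (log2 fold change 2.65, SE 0.36). WT was thus imprecise, with a variation of 42.8% against 32.2% from counting error, and without 1 library at a time the log2 fold change ranged from 2.38 to 2.92. Even in KO, Tbx4 remained 1.18 FPKM, below Tbx5 in every library.

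Tbx5, the forelimb counterpart of Tbx4 (ENSMUSG00000018263, chromosome 5, 119970733 to 120023284, plus strand), had 187, 234 and 308 counts in WT and 362, 278 and 263 in KO. These were 14.7, 16.7 and 16.5 CPM in WT and 17.1, 16.7 and 16.4 in KO, and the genotypes overlapped (log2 fold change 0.07, SE 0.12). The FPKM of Tbx5 was 34.0, 17.0 and 14.9 times that of Tbx4 in the WT libraries and 3.47, 2.93 and 2.77 times in the KO libraries. The ratio was lower in every KO library than in any WT library.

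Tbx1 (ENSMUSG00000009097, chromosome 16, 18399729 to 18409421, minus strand) was the sole member called lower in KO, with 247, 217 and 327 counts in WT and 53, 44 and 47 in KO. Its CPM was 19.4, 15.5 and 17.6 in WT and 2.50, 2.64 and 2.93 in KO, with no overlap. The mean of 17.5 ± 1.95 CPM in WT and 2.69 ± 0.221 in KO left 15.4% of the WT level (log2 fold change -2.70, SE 0.17). The ratio of Pitx1 to Tbx1 in FPKM was 0.547, 0.513 and 0.636 in WT and 17.1, 13.5 and 14.6 in KO, so the more abundant gene of this pair was Tbx1 in each WT library and Pitx1 in each KO library.

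Tbx20 (ENSMUSG00000031965, chromosome 9, 24629434 to 24685599, minus strand), a gene of the developing heart, had 0, 0 and 2 counts in WT and 13, 10 and 8 in KO. The WT libraries lay at or under the floor of 3 counts per library, so against that floor the KO level of 0.571 ± 0.0626 CPM was at least 2.81-fold higher. The KO mean of 0.0474 FPKM was still the second lowest of the members. Tbx2 (ENSMUSG00000000093, chromosome 11, 85723377 to 85732774, plus strand) had 0, 0 and 2 counts in WT and 3, 0 and 3 in KO, and with both genotypes at the floor no fold is given.

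**Figure D2:**
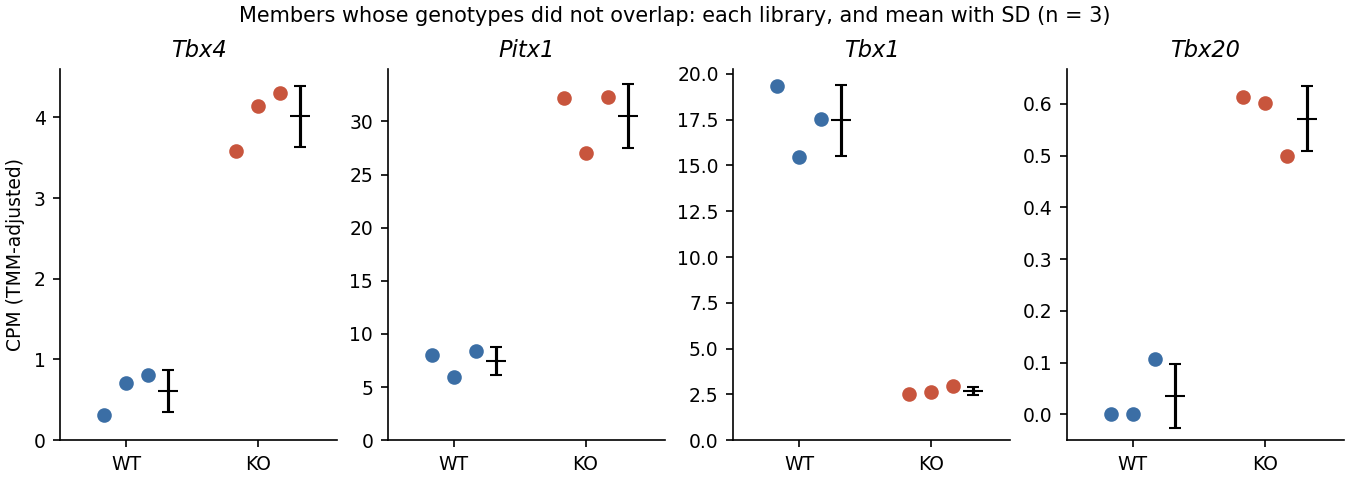
CPM (TMM-scaled) of Tbx4, Pitx1, Tbx1 and Tbx20, with 1 point per library and the mean with its SD (n = 3) beside the points. The KO libraries lay above the WT libraries for Tbx4, Pitx1 and Tbx20 and below them for Tbx1, on a different axis in each panel.

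The libraries of WT and KO overlapped for the other 3 expressed T-box genes, as for Tbx5. Tbx15 (ENSMUSG00000027868, chromosome 3, 99147697 to 99261575, plus strand) had 102, 105 and 105 CPM in WT and 104, 98.2 and 96.5 in KO (log2 fold change -0.06, SE 0.08), with counts of 1299 to 1965 in WT and 1546 to 2213 in KO. Its libraries varied by 1.99% in WT and by 4.20% in KO. Tbx18 (ENSMUSG00000032419, chromosome 9, 87584853 to 87613313, minus strand) had 29.4, 28.7 and 26.4 CPM in WT and 31.3, 28.1 and 30.0 in KO (log2 fold change 0.09, SE 0.10).

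Tbx3 (ENSMUSG00000018604, chromosome 5, 119808734 to 119822789, plus strand) had 25.2, 25.7 and 30.8 CPM in WT and 30.4, 29.8 and 29.8 in KO (log2 fold change 0.14, SE 0.10). A single WT library was as high as the KO libraries, and the other WT libraries were lower than every KO library. Tbx3 varied by 11.2% in WT, more than the 4.89% of counting error, and by 1.18% in KO. Over Tbx3, Tbx5, Tbx15 and Tbx18 the standard errors of the log2 fold change were 0.08 to 0.12.

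**Figure D3:**
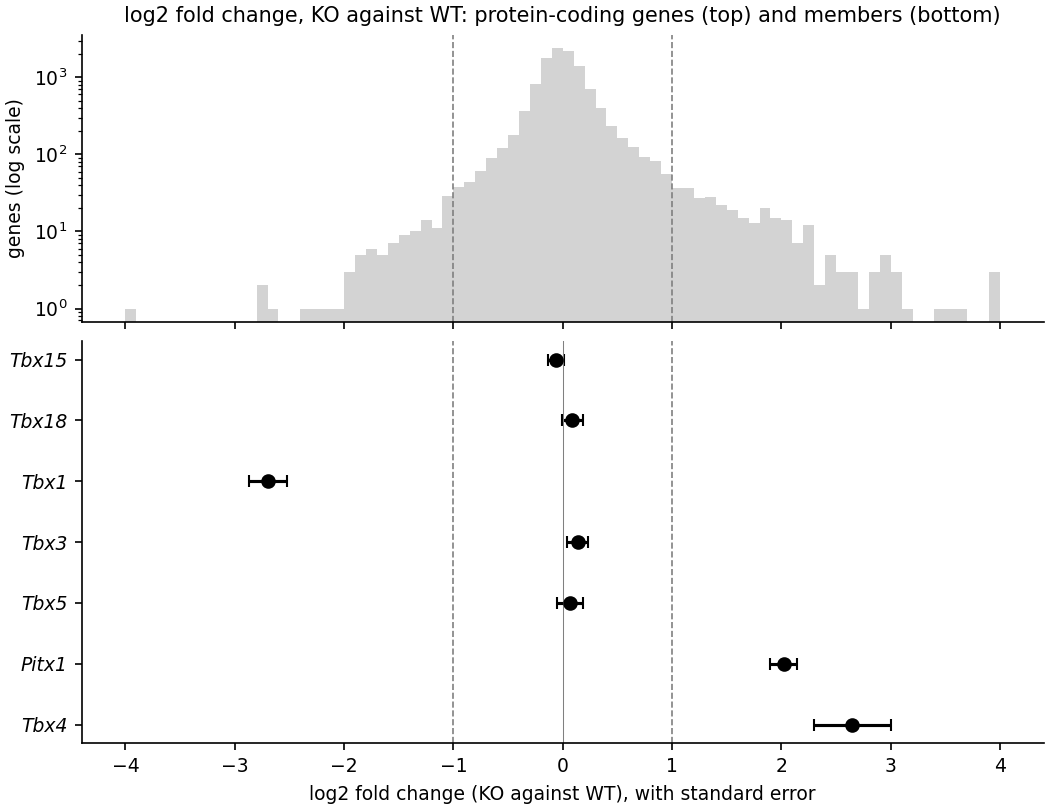
Top, number of protein-coding genes with a mean of at least 1 CPM by log2 fold change of KO against WT (log count axis, values beyond the range placed in the end bins). Bottom, log2 fold change with its standard error for the 7 members above the floor in both genotypes; dashed lines mark the limit of 1 in either direction, which Tbx4, Pitx1 and Tbx1 passed.

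Members that lie together in the genome were set side by side. Tbx2 and Tbx4 lie 44.5 kb apart on chromosome 11, and Tbx2 was at the floor in both genotypes while Tbx4 was called higher. Tbx3 and Tbx5 lie 148 kb apart on chromosome 5 and were both at similar levels in WT and KO. The FPKM of Tbx3 was 1.21 ± 0.112 times that of Tbx5 in WT and 1.27 ± 0.0141 times in KO.

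Genes around the members were compared next. Within 500 kb of a member, 71 protein-coding genes that are not members were listed and 57 tested. Of the 57, edgeR and DESeq2 called 0 in either direction, where edgeR called 1.75% of all genes tested higher and 0.665% lower. An unadjusted p below 0.05 in edgeR was reached by 9 of the 57. Over protein-coding genes with a mean of at least 1 CPM, log2 fold changes had 5th and 95th percentiles of -0.42 and 0.64. The 47 neighbours with a mean above 1 FPKM in a genotype had log2 fold changes from -0.60 to 0.40. Around Tbx1 these were 17 genes from -0.60 to 0.22, around Tbx4 4 genes from -0.09 to 0.21, and around Pitx1 18 genes from -0.21 to 0.40. The nearest neighbours above 1 FPKM in at least 1 library were Gnb1l (14.3 kb) and Gm49601 (29.8 kb) for Tbx1, Bcas3 (60.4 kb) and Brip1 (142 kb) for Tbx4, and Pcbd2 (48.2 kb) and Macroh2a1 (237 kb) for Pitx1. Of the 57 genes, 4 had an adjusted p below 0.05 in edgeR without the fold. These were the chemokine gene Cxcl14 (log2 fold change 0.40, adjusted p = 0.000351), the histone variant gene Macroh2a1 (0.21, adjusted p = 0.0444) and Pdlim7 (0.21, adjusted p = 0.0420) near Pitx1, and Septin7 near Tbx20 (-0.34, adjusted p = 2.69e-05).

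**Figure D4:**
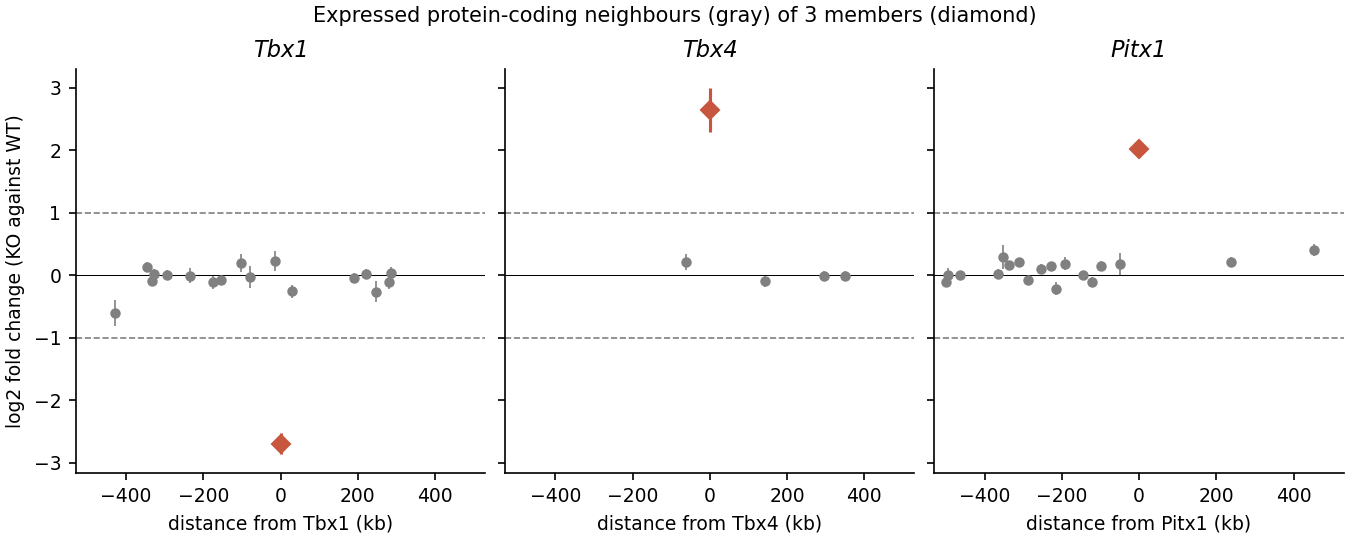
log2 fold change of KO against WT (with standard error) of the protein-coding genes with a mean above 1 FPKM in a genotype within 500 kb of Tbx1, Tbx4 and Pitx1 by distance in kb, with the member itself as a diamond at 0 kb. The neighbours lay between -0.60 and 0.40, inside the dashed lines at 1 in either direction.

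Other genes that are known to act with the members were followed by lists, whose counts and medians stand beside 1.75% of all genes tested called higher, 0.665% called lower and a median log2 fold change of 0.01. In the list of 11 other T-box and Pitx genes, 9 were tested, 1 was called higher and 1 lower, with 2 higher and 3 lower at an unadjusted p below 0.05 in edgeR. The median log2 fold change was -0.26, but 3 of the 9 were at the floor in every library, and the sole gene with a mean above 1 FPKM in a genotype, Mga, had 0.18. Tbr1, a T-box gene of the cortex, was called lower with 7, 27 and 2 counts in WT and 8, 0 and 2 in KO, but the genotypes overlapped, and without WT replicate 2 its log2 fold change was -0.79 and its adjusted p 0.77 by edgeR. DESeq2 did not call it (adjusted p = 0.161). Mga, which encodes a large T-box protein, was at 9.42 FPKM in WT and 10.7 in KO.

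Of 12 hindlimb field genes, which mark or set up the hindlimb, 11 were tested, 1 was called higher and 0 lower, with 4 higher and 1 lower at an unadjusted p below 0.05 in edgeR, 1 called by DESeq2, and a median log2 fold change of 0.11. Gata6, a zinc finger factor, was the gene called, with 12, 11 and 9 counts in WT and 175, 131 and 117 in KO (log2 fold change 3.45, adjusted p = 2.91e-36 by edgeR). Isl1, which acts upstream of the hindlimb program, was near 0 (0.0578 FPKM in WT and 0.160 in KO). Sall4 was at 0 in every library, and Hoxc9, Hoxc10, Hoxc11 and Gli3 were expressed and not called, of which Hoxc10 had a log2 fold change of -0.26 (adjusted p = 0.0487 by edgeR).

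Of 35 limb bud mesenchyme genes 28 were tested, 4 were called higher and 1 lower, with a median log2 fold change of 0.02, and of -0.02 over the 21 with a mean above 1 FPKM in a genotype. At an unadjusted p below 0.05 in edgeR, 8 were higher and 8 lower. The genes called higher were Msx2 (log2 fold change 2.94), Bmp4 (1.86), which encodes a bone morphogenetic protein, Irx3 (1.42) and Gli1 (1.08, adjusted p = 0.0302 by edgeR), a target of hedgehog signaling. Msx2 was not above 0 FPKM in every library, and its log2 fold change was 2.41 without WT replicate 2 and 4.2 without WT replicate 3. Gli1 was not called by DESeq2 (adjusted p = 0.141), nor in edgeR without KO replicate 1 or 2 or WT replicate 1 or 3. Fgf10, the growth factor of limb outgrowth, fell from 487, 540 and 642 counts in WT to 363, 309 and 309 in KO (log2 fold change -1.01, adjusted p = 3.76e-21 by edgeR). It lay at the fold limit, and without KO replicate 1, WT replicate 1 or WT replicate 2 the log2 fold change was -0.97, -0.99 and -0.99. Twist1 (35.3 FPKM in WT and 39.4 in KO), Grem1, Prrx1 and Wnt5a were abundant and not called.

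Genes known as targets of T-box factors numbered 22, of which 19 were tested, and Fgf10 was the sole gene called, lower in KO. None was called higher by edgeR or DESeq2, with 5 higher and 1 lower at an unadjusted p below 0.05 in edgeR, and the list's median log2 fold change was 0.11, with 4 of the 19 at the floor in every library, and 0.25 over the 7 with a mean above 1 FPKM in a genotype. Gja1, a gap junction gene that Tbx2 and Tbx3 repress, had a log2 fold change of 0.49 (adjusted p = 1.08e-08 by edgeR) and did not reach the fold limit. Cdkn2a and Cdkn2b, cell cycle inhibitors that Tbx2 and Tbx3 repress, had 0.26 and 0.25. Without WT replicate 1, 1 gene of the list, Cdh1, was called higher (log2 fold change 5.62), and with all libraries it had 2.74 (adjusted p = 0.18 by edgeR).

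Of 25 genes of the cardiopharyngeal mesoderm, the tissue in which Tbx1 and Tbx20 are best known, 19 were tested, 5 were called higher and 1 (Fgf10) lower, with a median log2 fold change of 0.63, and of 0.35 over the 8 with a mean above 1 FPKM in a genotype. At an unadjusted p below 0.05 in edgeR, 8 were higher and 3 lower. Among those higher were Gata6, which the hindlimb list also holds, Six2 (1.94), Chrd (1.52) and Foxc1 (1.25), a forkhead factor that rose from 2.94 to 6.98 FPKM. Chrd overlapped between genotypes and was not called by DESeq2 (adjusted p = 0.122), nor in edgeR without KO replicate 2 or WT replicate 1. Eya1, a cofactor in pharyngeal development, had a log2 fold change of -0.65, within the fold limit, and was not called. Nkx2-5 and Gata4, which define the heart field, were near 0, and Hand1, Gata5, Nkx2-6 and Tcf21 were at 0.

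Markers of cell types that a trunk culture could hold also moved between genotypes. Over all genes tested, edgeR called 1.75% higher and 0.665% lower. Tested were 7 epithelial, 6 mesothelial, 4 chondrocyte, 5 cardiomyocyte, 4 skeletal muscle and 10 fibroblast markers, and those not tested were at 0. Of 9 epithelial markers 2 (Krt8 and Krt18) were called higher, the summed level of the list was 0.713 to 1.25 CPM in WT and 5.65 to 6.74 in KO, and Krt5 and Esrp1 were at 0. Of 8 mesothelial markers Msln alone was called higher, with a list sum of 11.9 to 15.0 CPM in WT and 53.3 to 60.8 in KO, Lrrn4 and Muc16 at 0 and Wt1 and Upk3b near 0. Of 6 chondrocyte markers 3 (Sox9, Acan and Sox5) were called higher, with sums of 14.4 to 16.6 and 39.8 to 42.2 CPM, and Matn1 and Col9a1 at 0. Lower in KO were 1 of 7 cardiomyocyte markers (Tnnt2, sums of 8.15 to 8.96 and 2.77 to 3.82 CPM, Myh6 and Myl7 at 0), 1 of 7 skeletal muscle markers (Pax3, sums of 9.55 to 10.2 and 5.99 to 6.61 CPM, Myod1, Pax7 and Ckm at 0) and Thy1 among the 10 fibroblast markers (sums of 24652 to 29131 and 28611 to 29448 CPM). For endothelial (3 of 5 tested), blood (2 of 6) and neural crest (3 of 5) markers edgeR and DESeq2 called 0. An unadjusted p below 0.05 in edgeR was reached by 1 neural crest marker. The part of these markers in the levels of the members was not tested.

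Genes whose CPM followed 3 members most closely over the 6 libraries were listed by Pearson's r of log2(CPM + 1) among 11761 protein-coding genes with a mean of at least 1 CPM. Among the closest were Speg, Srgap3, Tle1, Sorcs2 and Piezo2 for Tbx4, Aif1l, Krt18, Arhgap44 and Itga3 for Pitx1, and Thy1, Ctsk, Sfrp2, Adamts18 and Impact for Tbx1. An r above 0.99 was reached by 49, 45 and 43 genes. The 6 points share their genotype in groups of 3, so a gene that differs between genotypes and varies little within them gets a high r, and r is a description here.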

How the data were processed

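The libraries were NEBNext Ultra preparations of TRIzol RNA, and the authors aligned reads with HISAT2 2.0.5 and counted them with featureCounts 1.5.0-p3, per the submitters' processing notes. The authors deposited raw counts per gene and FPKM values. The coordinates in the deposited tables are those of Ensembl 106 (GRCm39), whereas the processing notes name GRCm38, and promoter letters are from RefSeq on GRCm38.p6. The strand setting is not given, so genes that overlap on opposite strands (Pitx1, Tbx3, Tbx15 and Tbx18) are uncertain.

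Counts of all 6 libraries were fitted with edgeR 4.0.16 (quasi-likelihood, TMM factors of 0.980 to 1.01, R 4.3.3) on the 26898 genes with an FPKM above 0 in a library. The prior degrees of freedom were infinite, so each gene took its spread from the trend, and the p of a gene that varies more is too small. CPM are TMM-scaled, and DESeq2 1.42.0 was an alternative. On simulated counts for the comparison of KO with WT (25693 genes, 200 changed) edgeR recovered 200 with 4 false calls and DESeq2 200 with 0. The planted changes were large and only in well expressed genes, and the counts were drawn with the spread of the trend. Calls of low genes, or of genes that vary more than the trend, were thus not examined by it. Same-numbered WT and KO libraries did not deviate together (r from -0.0054 to 0.0416 over 13222 genes), so the fit had no replicate block.

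The members and lists were chosen with earlier results of these data known. Named were all members and Mcm8, from each list up to 8 genes called and up to 4 abundant ones not called, called genes and nearest expressed genes around members, up to 5 genes most like each of Tbx4, Pitx1 and Tbx1, and marker genes called or near 0. Further genes of the lists, and Cxcl14, Pdlim7 and Septin7 among the neighbours, were named after their values were seen. Some genes that this rule names are not reported here, though the counts and medians of their lists include them.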

Additional observations from a re-analysis of the deposited data

How the results depend on the processing

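The study has 3 libraries a genotype, and the members with few counts (Tbx2, Tbx4 in WT, Tbx20) are the least precise. Genes called numbered 472 higher and 179 lower in edgeR, 357 and 130 in DESeq2, 400 and 146 with the filterByExpr filter, 420 and 158 without a filter, and 386 and 146 with an FPKM above 0 in every library. A test against a 2-fold change called 157 higher and 43 lower, and then 0 other T-box and Pitx genes in either direction, 2 limb bud genes higher and 0 lower, 0 T-box targets lower, and 1 cardiopharyngeal gene higher and 0 lower. With an FPKM above 0 in every library, 2 limb bud genes were called higher. The call of Tbr1 was lost in DESeq2, with filterByExpr, with an FPKM above 0 in every library and with the replicate block, which left 0 other T-box and Pitx genes lower. The replicate block gave 445 genes higher and 158 lower in all, and the numbers did not pair the libraries. A window of 1000 kb around the members held 2 genes called higher, Prss35 near Tbx18 and Unc5a near Pitx1.

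Without 1 library at a time, genes called higher ranged from 391 to 477 and lower from 157 to 196, other T-box and Pitx genes called lower from 0 to 1, limb bud genes lower from 0 to 1, T-box targets higher from 0 to 1 and lower from 0 to 1, and cardiopharyngeal genes lower from 0 to 1. The log2 fold changes ranged from -2.78 to -2.62 for Tbx1, 2.38 to 2.92 for Tbx4, 1.89 to 2.13 for Pitx1, 0.08 to 0.24 for Tbx3, 0.01 to 0.10 for Tbx5, -0.10 to -0.03 for Tbx15 and 0.04 to 0.13 for Tbx18. On the log2(FPKM + pseudocount) scale Tbx1 was -1.75 with a pseudocount of 1 and -2.55 with 0.1, Tbx4 0.88 and 2.19, and Pitx1 1.71 with 1, as a pseudocount shrinks the differences of low genes. The place of Tbx20 in the WT order was 8 by the median and 8 to 9 without 1 library, where it tied with Tbx2 at 0. No cause of the other changes was tested.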

Other observations

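Noncoding genes within 100 kb of a member, a set chosen after the data were seen, numbered 20 among the genes tested. edgeR and DESeq2 called 0 of them in either direction, and 0 had an unadjusted p below 0.05 in edgeR. Over all genes tested, edgeR called 1.75% higher and 0.665% lower. Most of the 20 had too few counts to pass edgeR's filter on low counts, so little can be read from the 0.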
